A study of Homo sapiens with 44 samples.

Results

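Ribosome biogenesis factors are the proteins that transcribe, modify, cut and assemble ribosomal RNA with ribosomal proteins into the subunits of the ribosome. The 38 genes described here were listed by name and matched to array probe sets that name 1 gene only, with the brightest probe set kept where a gene had several. Of the 38 genes, 33 had such a probe set, among 12162 measured genes in all. The other 5 (GNL3, NOB1, EBNA1BP2, DDX18 and LYAR) were not analysed here. The members were followed in HL-60, U937, THP-1 and MOLM-14, 4 human acute myeloid leukemia cell lines. These were given a control hairpin RNA or a hairpin RNA aimed at 1 form of glycogen synthase kinase 3. Each line carried a control hairpin (3 arrays), 1 of 2 hairpins against GSK3A, called 5 and 6, or 1 of 2 hairpins against GSK3B, called 1 and 2 (2 arrays per hairpin). That gave 12 arrays with the control hairpin and 16 for each target. The hairpins came by lentivirus, puromycin at 1 µg per mL was added 48 h after infection, and RNA was taken 48 h after that, so that the controls had been through infection and selection too. The labels call the replicate arrays biological but name no separate cultures or infections, and the p-values measure the spread between these arrays only.

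Ribosome production begins in the nucleolus, where RNA polymerase I (Pol I), recruited by UBTF and RRN3, transcribes the ribosomal DNA. Small nucleolar ribonucleoproteins (snoRNPs) modify the precursor, and the small and large subunits are then built along separate assembly lines. The transcription factor MYC is known to raise many of these genes, and fast-growing leukemia cells are known for large nucleoli.

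To check the labels, the targeted genes were read first. GSK3B fell by 1.56 ± 0.05 (log2, SE) over the lines with its own hairpins, and its deposited intensity fell from 158 to 187 in the control means to 30.0 to 87.1. The GSK3A probe set was dim, with control means between 37.2 and 54.2. It fell by 0.09 ± 0.03 over the lines with the GSK3A hairpins (limma, adjusted p = 0.0176). In THP-1 its 4 GSK3A arrays (31.3 to 41.1) overlapped the control arrays (32.3 to 41.6), so this probe set gives little check of those labels. Of the 14 measured myeloid markers, ELANE, CTSG, LYN and PTPRC had mean intensities over all arrays of a line of at least 433 in each line. MPO was at 5040 in HL-60 and between 12.9 and 53.1 elsewhere, CD14 at 427 in HL-60 and at most 13.7 elsewhere, SPI1 and CSF1R at most 40.5 in any line, and FCER1G at 38 in MOLM-14. HBB, CD3E and EPCAM stayed at or under 12.1. NKG7 reached 1030 in U937 and KRT18 reached 141 in MOLM-14. Over all lines with the GSK3A hairpins, 7 of the 14 measured myeloid markers rose and 3 fell, and 0 of 10 erythroid, 0 of 12 lymphoid and 0 of 12 epithelial or stromal markers were called. The labels give a plate position for each array: columns 1 to 6 hold the first replicates with 2 controls of each line, and columns 7 to 11 hold the second replicates with the third control. In MOLM-14 the log2 ratio of the 3′ to the 5′ ACTB probe sets, a sign of RNA quality, ran from 0.63 to 0.83 in columns 1 to 6 and from 1.56 to 2.55 in columns 7 to 11. In U937 this ratio ran from 0.417 to 0.555 and from 0.779 to 0.914. In HL-60 and THP-1 the ranges of both sets of columns overlapped.

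With the GSK3A hairpins, 25 of the 33 members fell over the 4 lines and 0 rose. Over all genes, 10.2% were called lower and 10.9% higher. The log2 change was below 0 for all 33 members, with a median of -0.17 and a range from -0.64 (RRN3) to -0.08, while the median over all genes was -0.000108. Most of these changes were small: 2 members, RRN3 and DDX21, passed 0.5 on the log2 scale. For the settings that follow, the shares of all genes called are not given here. The count was 32 of 33 with the plate columns as a block. It was 20 within columns 1 to 6 (median -0.19) and 3 within columns 7 to 11 (median -0.13). The latter hold 5 arrays per line against 6, with 1 control per line against 2. They also had the higher ACTB ratios in MOLM-14 and U937. Why fewer members were called there was not tested. Without HL-60 the count was 11 (median -0.13). With each line's constructs as a random block it was 13. That fit lets the arrays of a hairpin in a line share a deviation, through a correlation common to all genes. Arrays stay its units.

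**Figure D1:**
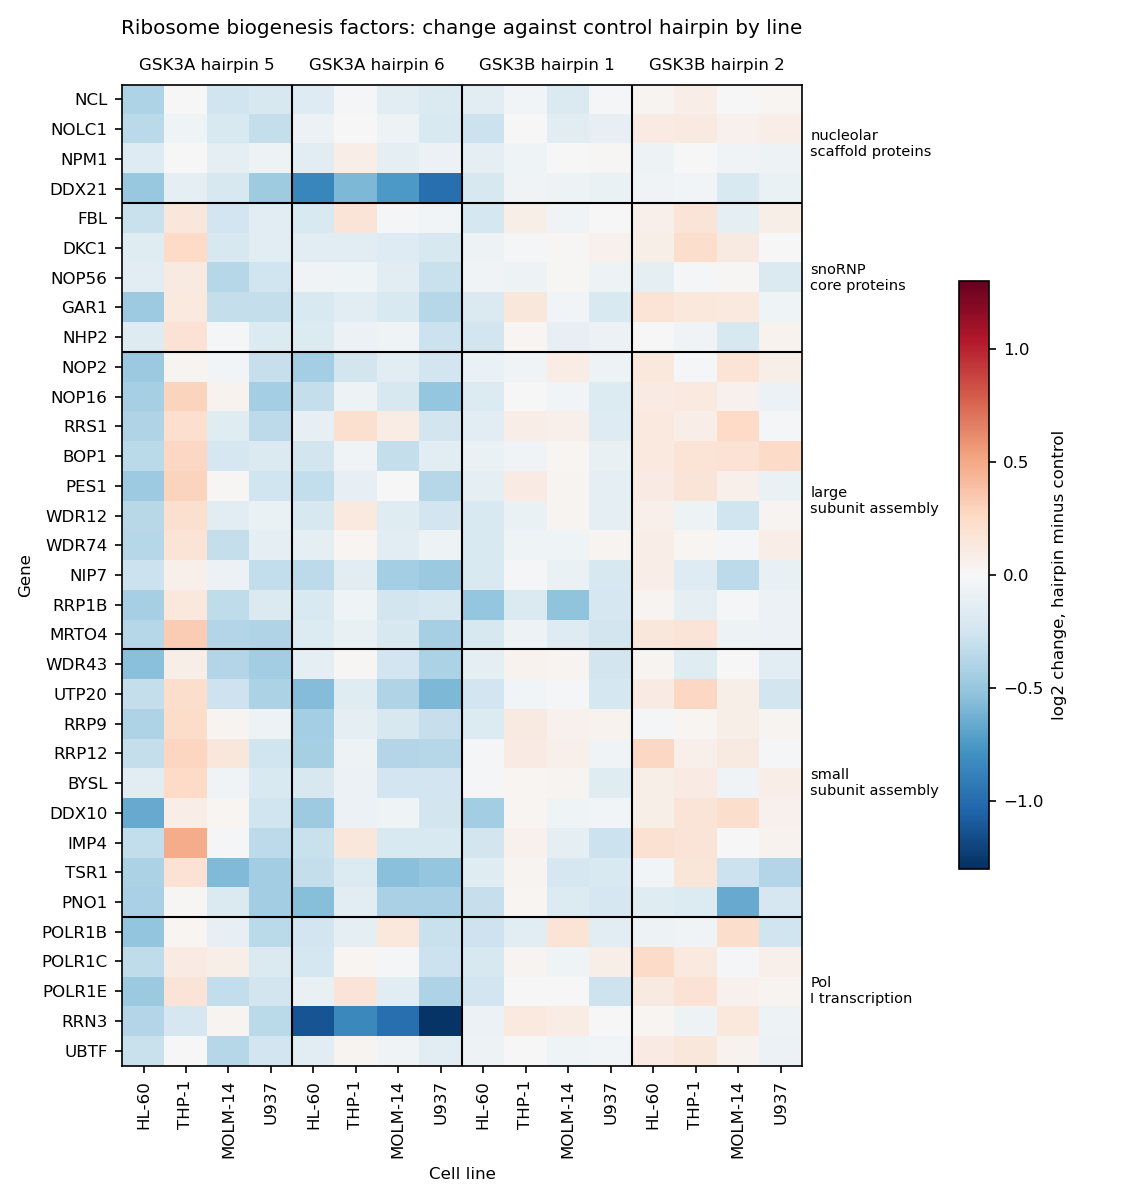
Colour map of the log2 change (hairpin minus control hairpin of the same line) for each of the 33 measured members, ordered by role, in the 4 lines for each of the 4 hairpins. With the GSK3A hairpins all 33 members are blue, or lower than control, in HL-60 and U937, 26 (hairpin 5) and 31 (hairpin 6) are in MOLM-14, and 4 and 23 are in THP-1. With GSK3B hairpin 1 all 33 are below control in HL-60.

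The same comparison was made against the GSK3B hairpins, which uses no control array. In the difference of GSK3A minus GSK3B, 21 of 33 members were lower and 0 higher, with a median of -0.15, while 11.2% of all genes were lower and 10.7% higher. RRN3 (-0.66 ± 0.04), DDX21 (-0.46 ± 0.04), NOP2 (-0.27 ± 0.05), UTP20 (-0.27 ± 0.06) and GAR1 (-0.25 ± 0.04) were the members furthest below 0.

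Upstream sequence was read for the members from the RefSeq promoter table (build GRCh38.p14), which held 27 of the 33 measured members. The 250 bases before each listed start were searched on both strands for 3 motifs of 6 bases: the E-box CACGTG, which MYC can bind, the core CCGGAA bound by ETS factors, and the GC box GGGCGG bound by Sp1. CACGTG stood in 3 of the 27 members (11.1%), namely UTP20, DDX21 and IMP4, and in 7.73% of all 27305 genes of the table. CCGGAA stood in 15 of 27 (55.6%, all genes 17.2%) and GGGCGG in 19 of 27 (70.4%, all genes 46.2%). Some members have several starts in the table, and a gene counts once if any start carries the motif. The 100 bases before the outermost start are printed 5′ to 3′ for the 4 called members with the largest fall (PNO1, at -0.32, was not called), with these motifs or their reverse complements in capitals. They lie at chr16:15094336-15094435 (RRN3, minus strand), chr10:68956070-68956169 (DDX21, plus strand), chr17:2336458-2336557 (TSR1, minus strand) and chr12:101280005-101280104 (UTP20, plus strand).
RRN3: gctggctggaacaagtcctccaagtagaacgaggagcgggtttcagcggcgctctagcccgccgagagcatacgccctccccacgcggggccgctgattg
DDX21: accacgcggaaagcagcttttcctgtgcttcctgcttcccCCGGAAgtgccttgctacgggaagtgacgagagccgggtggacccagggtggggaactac
TSR1: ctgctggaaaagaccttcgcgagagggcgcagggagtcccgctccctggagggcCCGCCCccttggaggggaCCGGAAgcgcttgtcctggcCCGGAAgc
UTP20: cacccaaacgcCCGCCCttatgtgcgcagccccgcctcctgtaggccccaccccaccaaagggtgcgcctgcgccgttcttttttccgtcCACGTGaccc
The stretch of UTP20 holds an E-box 10 bases before the start, and that of TSR1 holds the ETS core at 2 places. The RRN3 stretch holds none of the 3 motifs, which says only that these letters are not in this window. A match is a description of the letters and was not tested for binding.

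Of the Pol I group, 4 of 5 members fell with the GSK3A hairpins (median -0.17). RRN3, the initiation factor that joins Pol I to the ribosomal DNA promoter, fell most of all 33. In HL-60 its control arrays read 211, 244 and 222, hairpin 5 read 182 and 159, and hairpin 6 read 95.2 and 93.5. In THP-1 the controls read 189.5, 212 and 213, hairpin 5 read 183.5 and 169.6, and hairpin 6 read 99.2 and 120.6. All 8 of these GSK3A arrays lay below every control of their line, and those of hairpin 6 were the lowest. In MOLM-14 the controls read 224, 273 and 299, hairpin 5 read 267 and 271, and hairpin 6 read 129.6 and 119. In U937 the controls read 246, 242 and 236, hairpin 5 read 166.6 and 209, and hairpin 6 read 84.4 and 93.8. The 2 hairpin 5 arrays of MOLM-14 lay inside the range of the controls, and the other 14 of 16 GSK3A arrays lay below it. The log2 change of RRN3 was -0.64 ± 0.04 over the lines (limma, adjusted p = 1.42e-11). RRN3 stayed called within either set of plate columns (-0.64 and -0.66) and with the random block (limma, adjusted p = 0.000579). That block uses a correlation common to all genes, while RRN3 stood at -0.23 with hairpin 5 and at -1.05 with hairpin 6. It is thus no test between hairpins as units. The probe set used names RRN3 alone, but RRN3 has pseudogene copies, and a further probe set shared with them was not used.

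The other Pol I members moved less. POLR1E, a Pol I subunit, fell by 0.17 ± 0.03 (adjusted p = 0.00029). Its intensity was 194 ± 8.59 (SD, n = 3) in HL-60 controls and 159 ± 27.4 (SD, n = 4) with the GSK3A hairpins, while in THP-1 it was 145 ± 3.07 in the controls and 164 ± 6.83 with those hairpins. All 4 THP-1 arrays with GSK3A hairpins (155 to 170) lay above the THP-1 controls (142 to 148). UBTF, which bends and marks the ribosomal DNA promoter, fell by 0.15 ± 0.03, from 102 ± 2.89 to 87.2 ± 6.5 in HL-60. POLR1C, a subunit shared with RNA polymerase III, fell by 0.11 ± 0.03. Its call was lost in 6 of the 16 settings other than leaving out 1 array. A second POLR1C probe set was at -0.12 ± 0.05 and was not called (limma, adjusted p = 0.0681 over all probe sets). POLR1B, the second largest Pol I subunit, was at -0.18 ± 0.07 and missed the threshold (adjusted p = 0.0823).

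All 4 measured nucleolar scaffold proteins fell (median -0.16). DDX21, an RNA helicase of the nucleolus, fell by 0.56 ± 0.04 (adjusted p = 2.87e-10). In HL-60 its control arrays read 2175, 2193 and 2185, hairpin 5 read 1558 and 1503, and hairpin 6 read 1225 and 1153. In THP-1 the controls read 976, 914 and 906, hairpin 5 read 882 and 858.5, and hairpin 6 read 608 and 637. Both lines thus show the order control, hairpin 5, hairpin 6 with no overlap. In MOLM-14 the controls read 2977, 2607 and 2719, hairpin 5 read 2354 and 2335, and hairpin 6 read 1633 and 1512. In U937 the controls read 2030, 1894 and 1545, hairpin 5 read 1439 and 1216, and hairpin 6 read 1018 and 805. DDX21 was the 1 member whose 16 GSK3A arrays all lay below every control of their line, which held for 0.222% of all genes. Within columns 1 to 6 and within columns 7 to 11 its change was -0.54 and -0.54, both called.

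**Figure D2:**
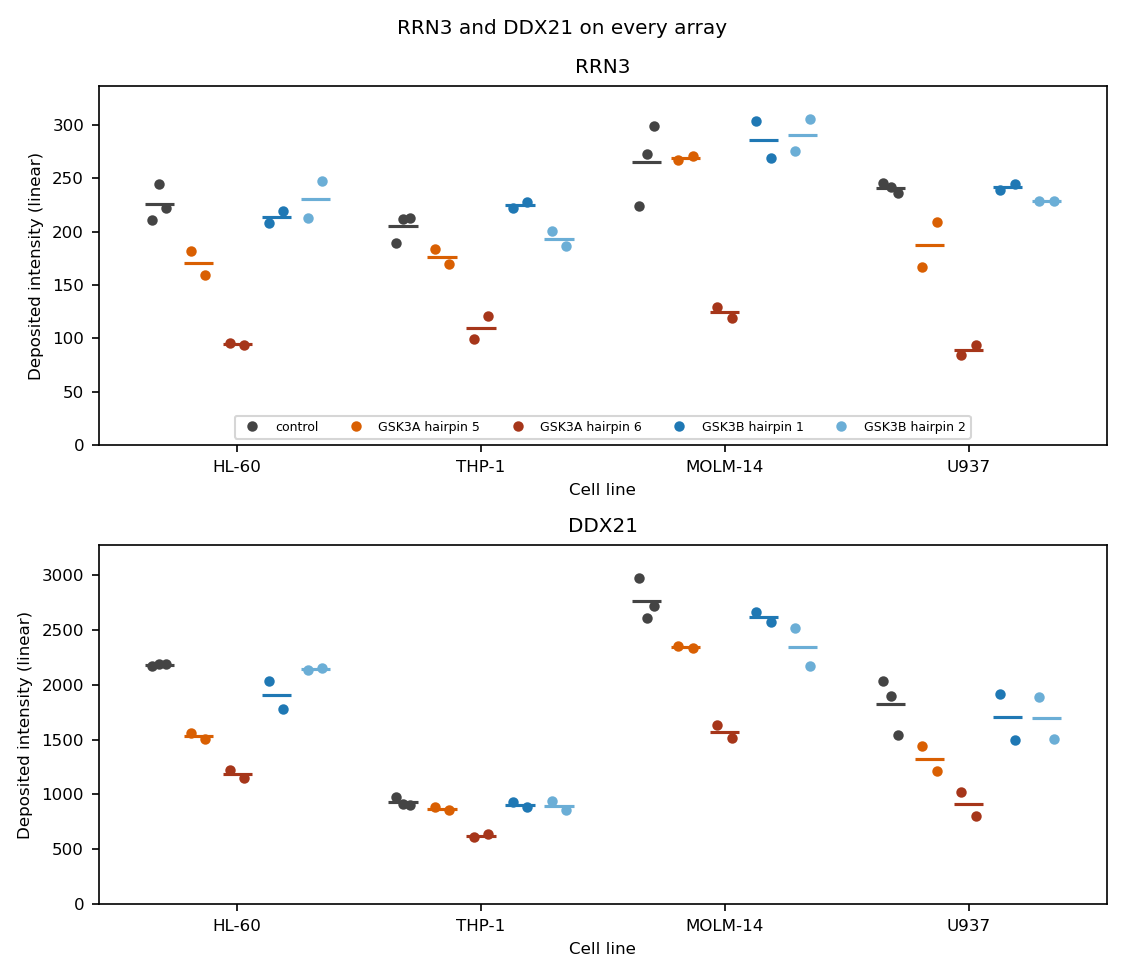
Deposited intensity (linear scale from 0) of RRN3 and DDX21 on each of the 44 arrays, by cell line and construct, with a bar at the mean of each group (3 control arrays, 2 arrays per hairpin). The GSK3A hairpin 6 arrays are the lowest of every line for both genes, and the hairpin 5 arrays lie between them and the controls except for RRN3 in MOLM-14.

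The other scaffold proteins fell by less. NOLC1, a chaperone of snoRNPs, fell by 0.16 ± 0.03 (adjusted p = 4e-05). Its intensity was 1370 ± 12.0 in HL-60 controls and 1150 ± 134 with GSK3A hairpins, and 1840 ± 159 against 1530 ± 107 in U937. NOLC1 and DDX21 were the 2 members below the control mean in all 8 pairs of GSK3A hairpin and line, which 3.69% of all genes also were. NCL, the histone and RNA chaperone nucleolin, fell by 0.17 ± 0.03, from 3620 ± 192 to 2960 ± 255 in HL-60 but from 2400 ± 152 to 2380 ± 47.6 in THP-1. NPM1, nucleophosmin, which is often mutated in this leukemia, fell by 0.08 ± 0.03 (adjusted p = 0.0469). Leaving out any 1 of 25 arrays ended that call. It was also lost in 9 of the 16 other settings, among them the mean of all NPM1 probe sets and the random block.

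The snoRNP core proteins moved least, with 2 of 5 lower and a median of -0.11. GAR1, of the snoRNPs that guide pseudouridine formation, fell by 0.23 ± 0.04 (adjusted p = 0.000161). Its U937 intensity was 375 ± 10.9 in the controls (363 to 382) and 292 ± 13.6 with the GSK3A hairpins (275 to 307), with no overlap. NOP56, of the snoRNPs that guide ribose methylation, fell by 0.15 ± 0.04, from 2700 ± 309 to 2170 ± 79.1 in U937. FBL, the methyltransferase of the latter kind, was at -0.08 ± 0.04, DKC1, the pseudouridine synthase, at -0.11 ± 0.05, and NHP2, its partner, at -0.10 ± 0.06. None of these 3 passed the test over the lines. A dimmer DKC1 probe set did so (-0.16 ± 0.04, adjusted p = 0.00121 over all probe sets), so the DKC1 result depends on the probe set.

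Of the small subunit assembly factors, 6 of 9 fell, with a median of -0.21. TSR1, a late factor of the pre-40S particle, fell by 0.35 ± 0.07 (adjusted p = 0.000608), and its MOLM-14 intensity was 276 ± 12.9 in the controls (262 to 288) and 181 ± 22.6 with the GSK3A hairpins (154 to 204). Another TSR1 probe set fell by 0.34 and the remaining one was at -0.02. UTP20, a scaffold of the small subunit processome, fell by 0.31 ± 0.07, from 522 ± 24.1 to 381 ± 50.9 in HL-60 and from 269 ± 39.5 to 185 ± 20.2 in U937. Beside RRN3 and DDX21, it was the 1 member whose call over the lines held in all 16 settings other than leaving out 1 array. WDR43, a processome subunit, fell by 0.26 ± 0.05, RRP12, an export factor, by 0.17 ± 0.04, and RRP9, a protein of the U3 snoRNP, by 0.16 ± 0.04.

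DDX10, a helicase of the same assembly line, fell by 0.21 ± 0.04 over the lines, but its values differed between lines. In HL-60 its controls read 441, 496 and 471, hairpin 5 read 285 and 295, and hairpin 6 read 328 and 339. In U937 the controls read 381, 375 and 416 and the 4 GSK3A arrays lay between 315 and 337. In MOLM-14 the controls (346 to 421) and the GSK3A arrays (323 to 415) overlapped. The change was -0.57 ± 0.07 in HL-60, -0.25 ± 0.07 in U937, -0.02 ± 0.07 in MOLM-14 and 0.01 ± 0.07 in THP-1. The 3 members of this group that missed the threshold were PNO1 (-0.32 ± 0.12), BYSL (-0.11 ± 0.05) and IMP4 (-0.09 ± 0.06), of which PNO1 had the widest error of all 33 members. A second PNO1 probe set was called lower (-0.19 ± 0.06, adjusted p = 0.0354 over all probe sets).

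Of the large subunit assembly factors, 9 of 10 fell, with a median of -0.17. NIP7, which acts in late ribosomal RNA maturation, fell by 0.25 ± 0.05 (adjusted p = 0.000349), from 368 ± 2.39 to 292 ± 18.8 in HL-60. NOP2, an RNA methyltransferase known as a proliferation antigen of the nucleolus, fell by 0.23 ± 0.05, from 204 ± 4.28 to 144 ± 7.54 in HL-60, where the GSK3A arrays (138 to 155) stayed below the controls (201 to 209). PES1, BOP1 and WDR12, which form one complex, fell by 0.15 ± 0.04, 0.15 ± 0.06 and 0.11 ± 0.04. The BOP1 call was lost when any of 27 arrays was left out and in 6 of the 16 other settings, and the WDR12 call for 18 arrays and in 7 settings. PES1 went from 298 ± 27.0 to 222 ± 14.6 in HL-60 and was 215 ± 10.4 against 214 ± 28.5 in MOLM-14. MRTO4, NOP16 and WDR74 fell by 0.21 ± 0.06, 0.20 ± 0.06 and 0.12 ± 0.03, and RRS1 was at -0.09 ± 0.06 without a call. The calls of PES1, MRTO4, NOP16 and WDR74 were each lost in 5 of the 16 other settings. A second WDR74 probe set was at -0.08 ± 0.03 and was not called (limma, adjusted p = 0.128 over all probe sets).

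RRP1B, a nucleolar protein of the same group that also works in transcription, fell with hairpins against either target. It was at -0.19 ± 0.03 with the GSK3A hairpins (adjusted p = 1.84e-05) and at -0.20 ± 0.03 with the GSK3B hairpins (adjusted p = 8.86e-05), and the difference between the targets was 0.01 ± 0.03. In HL-60 its controls read 759, 786 and 753, GSK3B hairpin 1 read 514 and 577, and GSK3B hairpin 2 read 775 and 819. In MOLM-14 the controls read 655, 620 and 644, GSK3B hairpin 1 read 459 and 420, and GSK3B hairpin 2 read 611 and 634. The GSK3B fall thus lay with hairpin 1 (-0.36 ± 0.04) and not with hairpin 2 (-0.04 ± 0.04), a difference of -0.31 ± 0.04 (adjusted p = 1.24e-06). With the mean of both RRP1B probe sets, the GSK3B call was lost.

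RRP1B was the 1 member called with the GSK3B hairpins over the lines. Of all genes, 1.55% were lower and 1.78% higher, and the median of the members was -0.02. GSK3B hairpin 1 lowered 2 of 33 members, RRP1B and NOLC1 (-0.13 ± 0.03), and raised 0, with 2.2% of all genes lower and 2.44% higher. In HL-60 all 33 members lay below the control mean with hairpin 1, with a median of -0.18, and 3 were called lower (NOLC1, RRP1B and DDX10) and 0 higher, against 1.13% and 1.36% of all genes. The hairpin 1 medians were -0.11 in U937, -0.04 in MOLM-14 and 0.00 in THP-1. GSK3B hairpin 2 gave 0 calls, with 2.94% of all genes lower and 3.33% higher. Over the lines, 30 of 33 members lay below 0 with hairpin 1 (median -0.07) and 11 with hairpin 2 (median 0.05). The median of both together thus joins shifts to either side of 0. With the plate columns as a block the counts were 4 for both hairpins together, all lower, 9 for hairpin 1, all lower, and 8 for hairpin 2, of which 2 were lower. Shares of all genes with that block are not given here. With the random block the count for both hairpins was 0. GSK3B itself fell by 1.43 with hairpin 1 and fell by 1.69 with hairpin 2. Set against each other, hairpin 1 was below hairpin 2 for 8 members and above it for 0, with 5.72% of all genes lower and 5.27% higher. Those 8 were RRP1B, DDX10 (-0.26 ± 0.05), IMP4 (-0.25 ± 0.07), BOP1 (-0.24 ± 0.07), POLR1E (-0.23 ± 0.04), NOLC1 (-0.22 ± 0.03), NCL and POLR1C (-0.14 ± 0.04 each). Leaving out the first MOLM-14 array of hairpin 2 raised the count of that hairpin from 0 to 6 and that of both hairpins from 1 to 2. Without HL-60 control 2, U937 control 1 or either U937 array of GSK3A hairpin 5 it was 1, and without MOLM-14 control 3 or U937 control 3 it was 2. The count of 8 fell to 5 without the first HL-60 or the first THP-1 array of GSK3B hairpin 1.

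The GSK3A hairpins were also taken apart. Hairpin 5 lowered 17 members (10.6% of all genes lower, 11.5% higher) and hairpin 6 lowered 19 (7.89% lower, 8.81% higher), and neither raised any. Their medians were -0.17 and -0.19. The hairpins differed for 7 members. Of the members, 2 (6.06%) were lower with hairpin 5, a share below the 8.19% of all genes. Another 5 (15.2%) were lower with hairpin 6, against 8.61% of all genes. RRN3 differed most, at -0.23 ± 0.05 with hairpin 5 and -1.05 ± 0.05 with hairpin 6, followed by DDX21, at -0.32 ± 0.05 and -0.79 ± 0.05. RRP12, RRP9 and NIP7 were also lower with hairpin 6, by 0.28 ± 0.05, 0.22 ± 0.05 and 0.20 ± 0.06. UBTF and NOLC1 were lower with hairpin 5, at -0.23 ± 0.04 against -0.07 ± 0.04 and -0.23 ± 0.03 against -0.08 ± 0.03.

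By line, the fall with the GSK3A hairpins was seen in HL-60, U937 and MOLM-14. In HL-60, 20 members fell (4.97% of all genes lower, 4.05% higher) with a median of -0.30. In U937, 16 fell (3.09% lower, 3.63% higher) with a median of -0.27. In MOLM-14, 11 fell (7.62% lower, 8.31% higher) with a median of -0.18, and 34 of 36 cell cycle genes fell there too, with a median of -0.95. The cell cycle medians were 0.13 in HL-60, -0.11 in U937 and 0.07 in THP-1, with 0 genes lower in each. What the cell cycle genes have to do with the members in MOLM-14 was not tested. In THP-1, 2 members fell, RRN3 (-0.53 ± 0.08) and DDX21 (-0.35 ± 0.09), against 0.789% of all genes lower and 1.23% higher, and the median was 0.04. Taken alone there, hairpin 5 gave 0 calls (1.16% of all genes lower, 1.27% higher), with RRN3 at -0.22 and DDX21 at -0.11. Hairpin 6 alone lowered the same 2 members (1.28% lower, 1.27% higher), with RRN3 at -0.84 and DDX21 at -0.58. No member rose in any line.

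**Figure D3:**
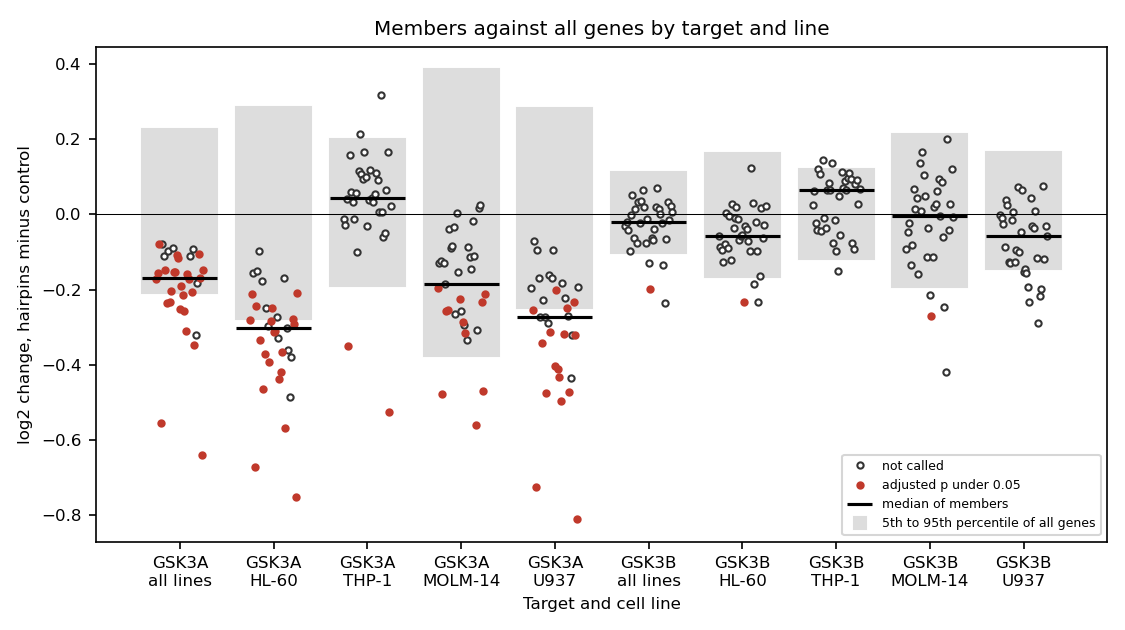
Log2 change (hairpins minus control) of the 33 members with the GSK3A and the GSK3B hairpins, over all lines and in each line. Filled points had an adjusted p under 0.05, the black bar is the members' median, and the grey box spans the 5th to 95th percentile of all genes. The medians for GSK3A are 0.04 in THP-1, -0.30 in HL-60, -0.27 in U937 and -0.18 in MOLM-14.

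These counts within a line rest on few arrays. Leaving out control replicate 1 brought the HL-60 count to 13. The U937 count was 7 without control replicate 1, 5 without control replicate 2, and 9 and 10 without the second array of hairpin 5 and of hairpin 6. In THP-1, 1 call was left when any of its 3 controls or 4 GSK3A arrays was left out. The MOLM-14 count was 7, 5 and 7 without control replicates 1, 2 and 3, and 4 without the first array of hairpin 5. With the plate columns as a block the counts rose to 31 in HL-60, 28 in U937 and 19 in MOLM-14, and in THP-1 2 members fell and 2 rose. The shares of all genes by line given above belong to the fit without that block, and those with it are not given here. With constructs as a random block the counts fell to 5 in HL-60, 1 in U937, 1 in MOLM-14 and 0 in THP-1. MOLM-14 and U937 were the lines in which the plate columns moved the members most, over a range from -0.92 to 0.50 and from -0.49 to 0.28 (log2, second minus first set).

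With the GSK3B hairpins, the counts within lines were 1 lower in HL-60 (0.576% of all genes lower, 0.411% higher) and 1 in MOLM-14 (0.617% and 0.822%). There were 0 calls in U937 (0.132% and 0.0822%) and 0 in THP-1 (0.0329% and 0.0164%). The 1 member was RRP1B in either line, at -0.23 ± 0.06 and -0.27 ± 0.06. The HL-60 call was lost when any of 10 of its 11 arrays was left out. The MOLM-14 count was 0 without control 1 or the second array of hairpin 1, and 3 without the first array of hairpin 2.

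The response to the GSK3A hairpins differed between lines for 10 of 33 members (moderated F-test, 7.84% of all genes). They were DDX10, POLR1E, PES1, POLR1C, RRP1B, RRP12, WDR12, IMP4, RRP9 and NOP16. For the GSK3B hairpins the count was 0 (0.214% of all genes). With the plate columns as a block these counts were 28 and 1, and the shares of all genes with that block are not given here. The GSK3A count fell to 4 without the second THP-1 array of hairpin 5, to 5 and 6 without THP-1 control replicates 1 and 3, and to 6 without the first THP-1 array of hairpin 6.

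THP-1 was then set against the mean of the other 3 lines, a contrast chosen after the responses by line had been seen. The difference in response was above 0 for all 33 members, with a median of 0.29 against 0.00 over all genes. It was called higher for 8 members and lower for 0, with 1.41% of all genes higher and 1.63% lower. Among the 8 called members, IMP4, of the U3 snoRNP, had the largest difference, 0.54 ± 0.13, followed by POLR1E (0.45 ± 0.08), RRP12 (0.38 ± 0.09), WDR12 (0.37 ± 0.09), PES1 (0.33 ± 0.08), FBL (0.31 ± 0.09), RRP1B (0.30 ± 0.07) and WDR74 (0.29 ± 0.08). TSR1 (0.47 ± 0.17) and UTP20 (0.46 ± 0.15) lay above POLR1E without passing the test. The THP-1 medians were 0.14 with hairpin 5, where 4 of 33 members lay below 0, and -0.06 with hairpin 6, where 23 did. In HL-60 and U937 all 33 lay below 0 with either GSK3A hairpin.

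THP-1 also stood apart in its levels with the control hairpin. Control levels differed between lines for all 33 members (67.8% of all genes). For each of the 33 the 3 THP-1 arrays lay below all 9 control arrays of the other lines, which held for 12.8% of all genes. THP-1 was called below HL-60 for 32 members (27.4% of all genes), below MOLM-14 for 33 (21.2%) and below U937 for 32 (24.1%). The THP-1 mean was between 23.0% (NOP56) and 83.9% (RRN3) of the mean of the other lines, with a median of 44.7%. Fewer transcripts per cell and a smaller part of the cells in a state of high ribosome production cannot be told apart in bulk RNA.

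NOP56 read 512 ± 39.0 in THP-1, 2080 ± 115 in HL-60, 1900 ± 223 in MOLM-14 and 2700 ± 309 in U937 (deposited intensity, SD, n = 3). NOP2 read 49.0 ± 2.94, 204 ± 4.28, 225 ± 29.1 and 175 ± 33.3 in the same order of lines, and TSR1 read 71.4 ± 9.72, 180 ± 17.7, 276 ± 12.9 and 307 ± 63.2. These were the genes with the lowest THP-1 share next to RRP1B, whose mean was 248 ± 13.8 in THP-1 and 1200 ± 105 in U937. At the other end, RRN3 control means ranged only from 205 in THP-1 to 266 in MOLM-14, and NPM1 from 5980 ± 433 in THP-1 to 7920 ± 285 in HL-60. The other lines had no common order: 16 members were highest in HL-60, 9 in MOLM-14 and 8 in U937. MYC was also lowest in THP-1, with 1450 ± 28.9 there, 4240 ± 823 in MOLM-14, 4450 ± 1020 in U937 and 7670 ± 328 in HL-60.

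**Figure D4:**
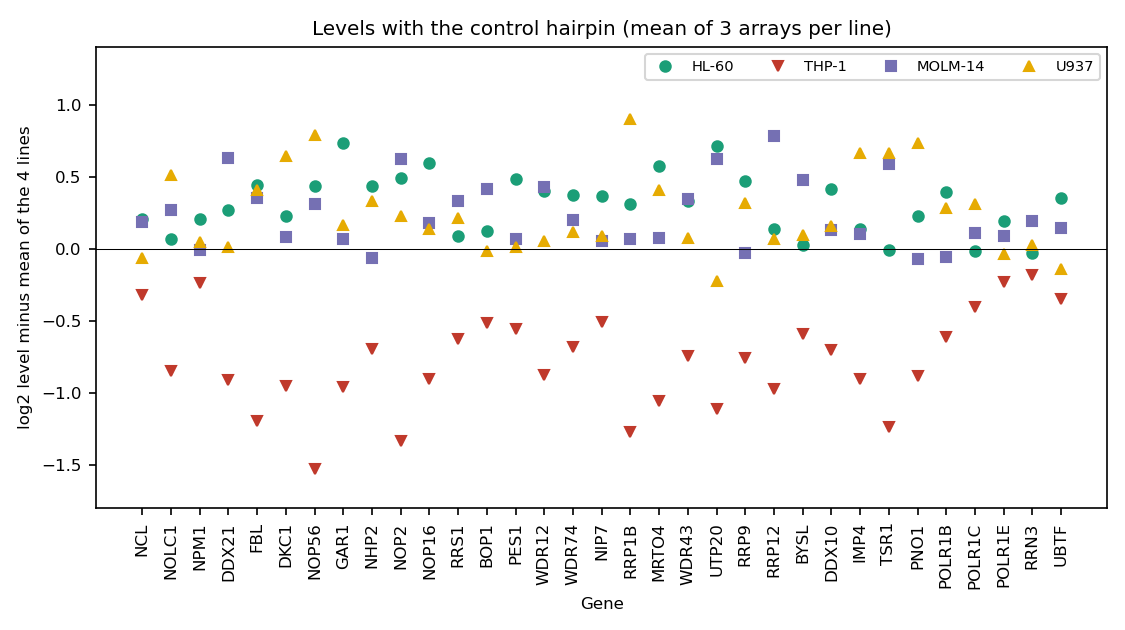
Log2 level of each member with the control hairpin, as the mean of 3 arrays per line minus the mean of the 4 lines, ordered by role. The THP-1 triangles lie lowest for all 33 members, nearest to the other lines for RRN3, POLR1E and NPM1 and farthest for NOP56.

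The low THP-1 level was less marked in neighbouring gene groups. The 3 THP-1 controls lay below all others for 5 of 11 other Pol I factors, 21 of 39 other small subunit factors, 27 of 44 other large subunit factors, 3 of 11 subunits of the RNA exosome, 6 of 63 cytosolic ribosomal proteins and 3 of 36 cell cycle genes. The median log2 difference of THP-1 from the mean of the other lines was -1.01 for the members, -0.59 for the other large subunit factors and -0.05 for the ribosomal proteins.

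Other genes of the pathway, from lists that do not hold the members, were called lower in part with the GSK3A hairpins, against 10.2% of all genes. Of 39 other small subunit factors 21 were lower and 0 higher (median -0.14), among them the processome subunits NOL11 (-0.26 ± 0.03), UTP6 (-0.19 ± 0.02) and NOL10 (-0.22 ± 0.03). Of 44 other large subunit factors 21 were lower and 0 higher (median -0.15), with LAS1L, which takes part in cutting the spacer between ribosomal RNAs, at -0.28 ± 0.04, SDAD1 at -0.33 ± 0.04 and BRIX1 at -0.24 ± 0.03. Of 11 other Pol I factors 4 were lower, with the Pol I subunit POLR1G at -0.32 ± 0.03, TCOF1, a nucleolar partner of Pol I, at -0.34 ± 0.05 and MYBBP1A at -0.26 ± 0.04. Of 11 exosome subunits 3 were lower, EXOSC9, EXOSC5 and EXOSC10. The 63 cytosolic ribosomal proteins, the building blocks themselves, gave 0 calls in either direction with limma, with a median of 0.005, and the member with the smallest adjusted p was RPS28 (-0.13 ± 0.05, adjusted p = 0.0532).

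MYC fell by 0.44 ± 0.10 with the GSK3A hairpins (adjusted p = 0.00232) and was at -0.12 ± 0.10 with the GSK3B hairpins. Its intensity went from 7670 ± 328 (7440 to 8040) to 5050 ± 497 (4450 to 5650) in HL-60, and from 1450 ± 28.9 (1420 to 1470) to 1320 ± 41.7 (1280 to 1380) in THP-1, without overlap in either. In U937 the control arrays (3760 to 5630) and GSK3A arrays (1910 to 4170) overlapped. Within a line none of the MYC changes passed the threshold (adjusted p = 0.0548 in HL-60). What MYC has to do with the members was not tested.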

How the data were processed

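RNA from AML cell lines was measured on 44 Affymetrix arrays. The deposited values are probe set intensities on a linear scale, already processed by the authors. RMA and MAS5 are named in the submitters' processing notes, and which of them gave the table is not given in the sources used here. Log2(intensity + 16) was taken and quantile-normalized, since the array medians spanned 0.154. The pseudocount makes log2 changes of dim genes smaller. Precision is limited by how many arrays there were. Probe sets naming 1 gene (19724 of 22277) were kept, the brightest per gene. Of the 33 measured members, 13 had several.

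Means of the 20 line and construct groups were fitted in limma 3.58.1 (R 4.3.3), with 24 residual degrees of freedom. Tests were two-sided, with Benjamini-Hochberg adjustment over 12162 genes and a threshold of 0.05. Errors after ± are standard errors of a log2 change, or SD where intensities are given. The code was tested on simulated data.

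Members, lists and tests were chosen with earlier results of these data known. Given in full were up to 4 called members per role for GSK3A, up to 2 for GSK3B, and members past 0.5 in log2 change. Other lists name up to 3 genes each with the smallest adjusted p. RPS28, the PNO1, DKC1 and TSR1 probe sets and the control-level examples were chosen after their values were seen. Same-numbered hairpin arrays deviated together in MOLM-14 (r from 0.56 to 0.75) and U937 (0.76 to 0.80), not in HL-60 (0.06 to 0.12) or THP-1 (-0.01 to 0.15). The main fit did not take the numbers as pairs in any line, so shifts between the plate columns enter its spread. Controls stood 2 to 1 over the sets of columns and each hairpin 1 to 1, so such shifts also enter hairpin minus control. The block of plate columns takes these shifts into account, and its counts are given as an alternative. Alternatives were other normalizations, pseudocounts, filters, probe set rules, blocks, and leaving out arrays, plate columns or lines.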

Additional observations from a re-analysis of the deposited data

Results flagged for a closer look

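For 10 members the response to the GSK3A hairpins differed between the 4 lines by the moderated F-test of limma. The adjusted p was 0.00139 for DDX10, 0.002 for POLR1E, 0.00407 for PES1, 0.00779 for POLR1C, 0.0188 for RRP1B, 0.0233 for RRP12, 0.0321 for WDR12, 0.0339 for IMP4, 0.0346 for RRP9 and 0.0454 for NOP16. Their THP-1 changes ran from 0.01 (DDX10) to 0.32 (IMP4), and their HL-60 changes from -0.57 (DDX10) to -0.28 (POLR1C and WDR12), with n = 4 GSK3A and 3 control arrays per line.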

How the results depend on the processing

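The sign of the change was followed for members called with either target's hairpins over the lines, or with GSK3A hairpin 5 or 6. No alternative reversed it. Directions of the counts were not compared. Apart from the settings that leave out 1 array, 176 of the recomputed counts stayed within 1.5 times the value in the report. Of the others, 29 rose past it and 40 fell below it. The GSK3A count in THP-1 was 1 with median scaling or the deposited values as they are. The GSK3B count in HL-60 was 0 with median scaling, the deposited values as they are, a pseudocount of 1, dim genes left out, or the mean of all probe sets. A pseudocount of 1 gave 7 for GSK3A in MOLM-14 and 6 for the response between lines. The mean of all probe sets gave 0 for GSK3B, 1 for its hairpin 1 and 0 in MOLM-14. The replicate block of plate columns gave 4 for GSK3B, 26 and 29 for GSK3A hairpins 5 and 6, 9 and 8 for GSK3B hairpins 1 and 2, and 16 and 18 for the differences between hairpins of GSK3A and of GSK3B. For GSK3A it gave 31 in HL-60, 28 in U937, 19 in MOLM-14 and 4 in THP-1, for GSK3B 2 in HL-60 and 2 in MOLM-14, and for the responses between lines 28 and 1. The replicate block of title numbers gave 3 for GSK3B, 9 and 6 for its hairpins, 13 and 15 for the differences between hairpins, 2, 5 and 3 for GSK3B in HL-60, MOLM-14 and U937, and 20 and 1 for the responses between lines. Within plate columns 1 to 6 the counts were 11 for GSK3A minus GSK3B, 12 for GSK3A hairpin 6, 1 for GSK3B hairpin 1, and 3 and 4 for the differences between hairpins. Within columns 7 to 11 they were 3 for GSK3A, 0 for GSK3B, 10 for their difference, 0 and 4 for GSK3A hairpins 5 and 6, 0 for GSK3B hairpin 1, and 2 and 0 for the differences between hairpins. With construct within line as a random block they were 13 for GSK3A and 0 for GSK3B, for GSK3A 5 in HL-60, 1 in U937, 1 in MOLM-14 and 0 in THP-1, and for GSK3B 0 in HL-60 and 0 in MOLM-14. Without HL-60 they were 11 for GSK3A, 11 for GSK3A minus GSK3B, 6 and 9 for GSK3A hairpins 5 and 6, 1 for GSK3B hairpin 1, and 4 and 2 for the differences between hairpins. Without THP-1 GSK3A hairpin 5 gave 26, without MOLM-14 GSK3B hairpins 1 and 2 gave 5 and 1, and without U937 GSK3B hairpin 1 gave 4. Leaving out 1 array at a time gave 22 to 26 for GSK3A, 1 to 2 for GSK3B, 20 to 24 for their difference, 13 to 21 and 15 to 23 for GSK3A hairpins 5 and 6, 2 to 3 and 0 to 6 for GSK3B hairpins 1 and 2, and 5 to 10 for the difference between the latter. By line it gave, for GSK3A, 13 to 18 in HL-60, 5 to 18 in U937, 4 to 13 in MOLM-14 and 1 to 2 in THP-1, for GSK3B 0 to 1 in HL-60 and 0 to 3 in MOLM-14, and 4 to 12 for the GSK3A response between lines. A hairpin left with 1 array was taken to vary like the other groups. Settings that use part of the arrays have fewer arrays to test with, and the causes of the shifts were not tested. The share of all genes called in each setting is not given beside these counts.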
